A study of Mus musculus with 4 samples.

Results

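A set of 10 genes of the hypoxia response was followed in mouse interneurons with and without *Dnmt1*: *Vegfa*, *Adm*, *Egln3*, *Pdk1*, *Ldha*, *Pgk1*, *Bnip3*, *Ndrg1*, *P4ha1* and *Ankrd37*. They were found by their symbols in GENCODE release M21, and all 10 were matched among the 55573 gene identifiers of the count tables. The set was put together with the KO and WT counts of these same libraries known, the difference in *Vegfa* included. The differences between genotypes in the 10 genes are therefore given as a description, with no p-value, and where calls or counting intervals are mentioned nothing is read from them. Of the 10 genes, 8 passed the expression filter that left 16832 genes for testing, whereas *Adm* and *Egln3* were too low.

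RNA was sequenced from living tdTomato-positive cells, sorted by FACS (fluorescence-activated cell sorting) out of dissociated basal telencephalon at E16, with insemination counted as the first embryonic day. All embryos carried the *Hmx3-Cre* transgene and the tdTomato reporter, so that cells of the *Hmx3* lineage of the preoptic area (POA) were labelled in each genotype. *Dnmt1* wild-type (WT) embryos had an intact *Dnmt1* gene, and in the knockout (KO) embryos, which carried the *Dnmt1* loxP2 allele, Cre removed exons 4 and 5 in *Hmx3*-expressing cells, which leaves a null allele. Each genotype gave 2 libraries, with cells pooled from 12 WT and from 6 KO embryos. The labels call the libraries biological replicates while the study's methods call them technical duplicates of pools, so that SDs and p-values measure only how far these libraries lie apart, which may be technical.

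The libraries held 8075102 to 9995968 counts, where 3 counts equal 0.294 to 0.372 CPM, the count relative to the TMM-scaled library size. WT replicate 1 differed from the others in its share of mitochondrial rRNA, at 8.66% against 1.51% to 2.32%. *Dnmt1* itself, counted over all its exons, stood at 385 and 446 CPM in WT against 283 and 281 CPM in KO (log2 fold change -0.56, SE 0.14, edgeR adjusted p = 0.0511), so that the KO libraries lay below the WT libraries without passing the threshold. Of 9 markers of POA and GABAergic interneurons, *Hmx3* among them, none was at 0 in both libraries of a genotype.

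Cells sense oxygen through the EGLN prolyl hydroxylases. At normal oxygen these enzymes mark the alpha subunits of the hypoxia-inducible factors (HIF) for the VHL ubiquitin ligase, and at low oxygen HIF accumulates, pairs with ARNT and binds hypoxia response elements with the core A/GCGTG. Its targets move glucose metabolism from the mitochondria to lactate, promote the growth of vessels, remove mitochondria and, through EGLN3, restrain HIF itself. In the developing brain, VEGF-A made by neural cells guides the vessels that grow in.

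To describe the 10 genes by their sequence, their promoters were read from the RefSeq promoter table (GRCm38.p6), which gives 250 bases before and 50 bases from each annotated start. The table held 12 windows for 9 of the genes and none for *Ndrg1*. The motifs ACGTG and GCGTG were searched on both strands, where the palindrome CACGTG counts on each strand. All 9 genes had either motif in a window, against 46.7% of the 27025 genes of the table, and 7 of the 9 had ACGTG, against 21.8%. By window, 10 of 12 held either motif, against 43.8% of all 32851 windows. Of the 12 windows, 11 also had more CpG dinucleotides, the substrate of DNMT1, than the median window with 7, and the counts ranged from 2 in the downstream *Pdk1* window to 32 in *P4ha1*. Both motifs contain a CpG, which makes a match likelier in such windows, and the shares over all genes are not matched for CpG. Genes of the hypoxia response are known as HIF targets, so that matches were likely beforehand and nothing is read from these shares. The motif nearest the start, with ACGTG taken before GCGTG, is shown in capitals within 25 bases, 5′ to 3′ on the strand that holds it:
Vegfa, downstream start (chr17:46025360-46025384, plus strand): ttgctctctgACGTGggcacgcact
Adm (chr7:110627593-110627617, minus strand): cggacggtggGCGTGgtcagatttg
Egln3 (chr12:54204089-54204113, minus strand): tgcatctcagACGTGagatccaggt
Pdk1 (chr2:71873212-71873236, plus strand): gcctacggggGCGTGgttccagcga
Ldha (chr7:46845760-46845784, minus strand): agcccagcggACGTGcgggaaccca
Pgk1 (chrX:106186959-106186983, minus strand): gactagtgagACGTGctacttccat
Bnip3 (chr7:138909599-138909623, minus strand): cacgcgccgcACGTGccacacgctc
P4ha1 (chr10:59323270-59323294, minus strand): agccctcgctACGTGcgctctgtca
Ankrd37 (chr8:45999842-45999866, minus strand): gtgtttgggtACGTGaggccgcagc

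The largest number of motifs was in the upstream *Ldha* window with 7, followed by *Bnip3* with 5 and *Ankrd37* with 4. At the upstream start of *Vegfa*, the gene with the largest difference between genotypes among the 8 tested, the window held neither motif and 16 CpG dinucleotides. Sequence outside the window was not searched, so that a motif further upstream would not be seen. Its 250 bases before the start, on the minus strand of GRCm38.p6 at chr17:46032378-46032627, are printed to show this window beside the others:
Vegfa, upstream start: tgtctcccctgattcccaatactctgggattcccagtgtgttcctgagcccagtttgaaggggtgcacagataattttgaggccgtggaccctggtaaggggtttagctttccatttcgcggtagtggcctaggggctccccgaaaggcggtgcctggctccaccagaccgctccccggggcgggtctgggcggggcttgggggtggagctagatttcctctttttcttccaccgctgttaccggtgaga

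A motif match is a description of the letters and not a measured binding site, and the counts below show that genes with matches differed widely in their change.

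*Vegfa* encodes the vascular endothelial growth factor VEGF-A, the secreted signal that makes endothelial cells divide and sprout. In GRCm38 it occupies chromosome 17, positions 46016993 to 46032369 (minus strand), with 4285 bases in its merged exons. Reads of *Vegfa* numbered 734 and 1003 in WT against 2898 and 3146 in KO, which corresponds to 91.1 and 98.3 CPM in WT and 345 and 346 CPM in KO. The WT libraries lay close to each other, the KO libraries closer still, and the genotypes did not overlap. The means were 94.7 ± 5.06 CPM for WT and 346 ± 1.38 CPM for KO (SD, n = 2 each). This is a 3.65-fold higher level, or a log2 fold change of 1.87 (SE 0.14). Only 0.182% of the 50-base stretches of *Vegfa* transcripts also occur in transcripts of another gene, so that its count is little exposed to copies.

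**Figure D1:**
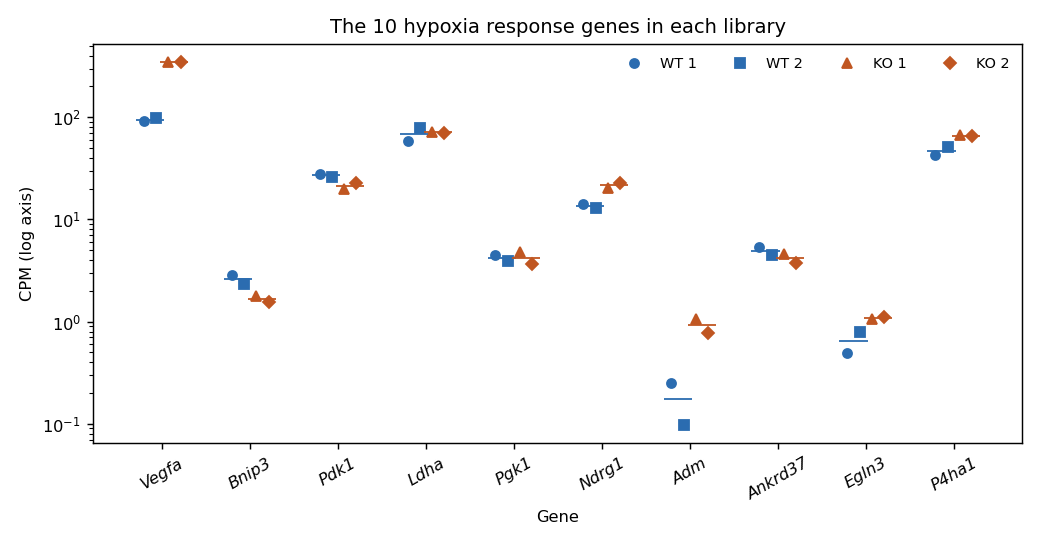
CPM of the 10 hypoxia response genes on a log axis, with a symbol for each library (WT in blue, KO in orange) and a line at the mean of each genotype. *Vegfa* stands at 91.1 and 98.3 CPM in WT and at 345 and 346 CPM in KO, whereas *Ldha*, *Pgk1* and *Ankrd37* overlap between the genotypes.

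*Vegfa* was the only gene among the 8 tested with an edgeR adjusted p under 0.05, a count that is given beside a share of 7.9% called among all genes tested and from which nothing is read, since the set was chosen on this contrast. Without WT replicate 1 the count was 2 of 9 tested, with *Ndrg1* added, where 21.3% of all genes were called. Without WT replicate 2 it was also 2 of 9, with *P4ha1* added, where 23.3% were called. With a correction for GC content and gene length it was 3 of 8, with *Ndrg1* and *P4ha1*, where 17.2% were called. The genotypes did not overlap in 5 of the 8 genes, against 53.5% of all genes tested. KO lay above in 3 (28.3% of all genes tested) and below in 2 (25.2%). Over the 8 genes, log2 fold changes had a median of 0.03, beside -0.03 over all genes tested.

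Markers of other cell types moved together with the genotype, so that their levels stand beside the difference in *Vegfa*. The summed level of 9 astrocyte markers was 211 to 228 CPM in WT and 3363 to 3587 CPM in KO, and all 9 were called higher in KO. *Gfap* had no count in either WT library. Mural cell markers summed to 62.7 to 71.5 CPM in WT and 417 to 422 CPM in KO, with 7 of 7 called higher and *Acta2* at 0 in both WT libraries. Oligodendrocyte markers summed to 190 to 229 CPM in WT and 661 to 662 CPM in KO, and 5 of 7 were called higher.

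Among the other lists, 9 neuron markers summed to 5752 to 6369 CPM in WT and to 4257 to 4325 CPM in KO, with 3 of 9 called lower. The 9 POA and GABAergic markers had 1474 to 1595 CPM in WT and 1242 to 1348 CPM in KO, with 0 called by edgeR (3 at an unadjusted p under 0.05). Endothelial markers, the cells on which VEGF-A acts, summed to 13.2 to 13.5 CPM in WT and 14.98 to 16.5 CPM in KO, with 0 of the 5 tested called by edgeR (1 at an unadjusted p under 0.05). Microglia markers summed to 28.1 to 31.7 CPM in WT and 54.2 to 61.0 CPM in KO, with 1 of the 7 tested called higher. Choroid plexus markers had 46.4 to 60.6 CPM in WT and 4.16 to 5.95 CPM in KO, and erythroid markers 30.8 to 44.7 CPM and 18.9 to 19.2 CPM, with 1 gene called lower in each list. The summed level of 9 dissociation stress genes was 235 to 249 CPM in WT and 177 to 199.6 CPM in KO, with 2 called higher and 2 lower. In such bulk libraries, more cells of a type and more RNA per cell cannot be told apart, and the part of these cell types in the level of *Vegfa* was not tested.

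**Figure D2:**
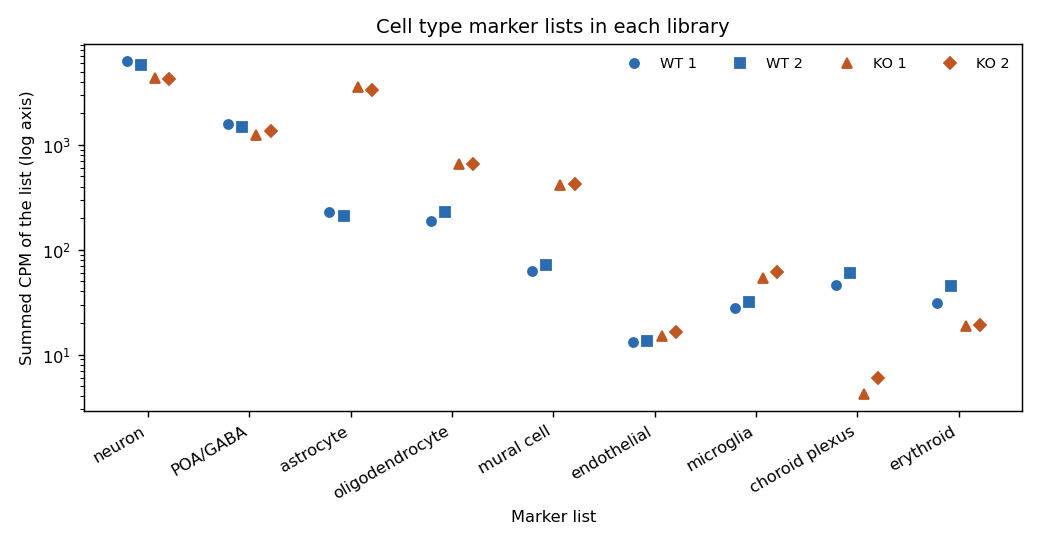
Summed CPM of each cell type marker list on a log axis, with a symbol for each library (WT in blue, KO in orange). The astrocyte list stands at 211 to 228 CPM in WT and at 3363 to 3587 CPM in KO, while the endothelial list stays between 13.2 and 16.5 CPM in all 4 libraries.

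*Adm*, on chromosome 7 from 110627661 to 110629820, encodes the precursor of adrenomedullin, a secreted peptide that widens vessels. The WT libraries held 2 and 1 counts and the KO libraries 9 and 7, so that both KO libraries lay above both WT libraries at a very low level. The ratio of the summed counts, KO over WT, was 5.57 (exact binomial 95% interval 1.59 to 29.8, which covers counting error only). *Egln3* encodes the EGLN prolyl hydroxylase that is itself induced by HIF and lies on chromosome 12 from 54178981 to 54203860. Its counts were 4 and 8 in WT and 9 and 10 in KO, a ratio of 1.65 with a counting interval of 0.762 to 3.73. Both KO libraries lay above both WT libraries for *Egln3* as well, at 1.07 and 1.10 CPM against 0.497 and 0.784 CPM.

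Next come the genes of glucose metabolism and mitochondria. *Pdk1*, on chromosome 2 from 71873224 to 71903858, encodes a kinase that switches off pyruvate dehydrogenase. It had 27.8 and 26.3 CPM in WT and 19.97 and 22.7 CPM in KO. Both KO libraries lay below the WT libraries, with a log2 fold change of -0.34 (SE 0.19).

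*Ldha* encodes the lactate dehydrogenase subunit that favours the step from pyruvate to lactate, and lies on chromosome 7 from 46841475 to 46855627. Its level was 58.0 and 78.3 CPM in WT and 71.8 and 70.3 CPM in KO, so that both KO libraries lay between the WT libraries. The log2 fold change of *Ldha* was 0.06 (SE 0.18). It was -0.15 without WT replicate 1 and 0.28 without WT replicate 2. *Pgk1* encodes phosphoglycerate kinase, an ATP-making enzyme of glycolysis, and lies on the X chromosome from 106187100 to 106203699. The WT libraries held 36 and 40 counts and the KO libraries 40 and 33, and the means of 4.19 CPM in each genotype could not be told apart (log2 fold change 0.00126, SE 0.38).

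*Bnip3* encodes a mitochondrial outer membrane protein that marks mitochondria for removal by autophagy, and lies on chromosome 7 from 138890836 to 138909519. Its counts were 23 and 24 in WT and 15 and 14 in KO. The libraries did not overlap, but the log2 fold change of -0.64 had an SE of 0.501 on these few counts.

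Counts of several of these genes are uncertain, because reads that fit more than a single place may be left out or shared. Of the 50-base stretches of *Pgk1* transcripts, 53.9% also occur in transcripts of another gene, as do 47.2% of those of *Bnip3*, 17.0% of *Ankrd37* and 9.26% of *Ldha*. For *Pdk1*, *P4ha1*, *Adm* and *Egln3* this share was 0. The annotated copies *Pgk1-rs7*, *Pgk1-ps1* and *Pgk1-ps3* had 0 counts in all 4 libraries, and *Ldha-ps2* had 6 to 13. The antisense gene *Gm45507* covers 22.3% of the exonic bases of *Bnip3* and had 0 counts.

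*Ndrg1* encodes a cytoplasmic stress-response protein of the NDRG family, which in the nervous system is known for its role in myelinating Schwann cells. It lies on chromosome 15 from 66929318 to 66969640. *Ndrg1* had 14.0 and 13.0 CPM in WT and 20.4 and 22.6 CPM in KO, and the genotypes did not overlap (log2 fold change 0.67, SE 0.21). *P4ha1* encodes the catalytic subunit of the collagen prolyl 4-hydroxylase and lies on chromosome 10 from 59323296 to 59373304. Its level was 43.1 and 51.3 CPM in WT and 66.6 and 65.0 CPM in KO, which makes both KO libraries higher than both WT libraries, by a log2 fold change of 0.48 (SE 0.16). *Ankrd37*, on chromosome 8 from 45996902 to 46005707, encodes a small ankyrin repeat protein. Its counts, 43 and 46 in WT against 39 and 34 in KO, left the genotypes overlapping on the CPM scale, with a log2 fold change of -0.23 (SE 0.36). The gene *Lrp2bp* covers 22.7% of the exonic bases of *Ankrd37* on the opposite strand, and its own counts were 7 and 22 for WT against 4 and 3 for KO. The strand setting of the counting is not given in the sources used here, so that reads of the overlapping genes cannot be told apart there.

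To compare the 10 genes with each other, CPM were divided by the length of the merged exons in kilobases. In WT, *Vegfa* had 22.1 ± 1.18 CPM per kilobase (SD, n = 2) and *Ldha* 20.6 ± 4.34 (SD, n = 2), and the ranges of their libraries overlapped, so that their order is not resolved. *P4ha1* followed with 11.5 ± 1.42 (SD, n = 2), apart from both neighbours in the order. *Pdk1* and *Ankrd37*, with 3.47 and 3.20 CPM per kilobase, overlapped, as did *Ndrg1* and *Pgk1* with 2.05 and 1.87. The lowest 3 genes, *Bnip3* (1.15), *Egln3* (0.24) and *Adm* (0.107), were apart from each other. Of the 50-base stretches of *Pgk1* and *Bnip3*, 53.9% and 47.2% are shared with other genes. Their levels may be too low if such reads were left out, so that their places in the order are uncertain.

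In KO, *Vegfa* was on top with 80.6 ± 0.321 CPM per kilobase (SD, n = 2), and *Ldha* followed with 21.5 ± 0.33 (SD, n = 2). *P4ha1* kept the third place with 15.99, and *Ndrg1*, in the sixth place in WT, was in the fourth in KO with 3.26. *Pdk1* and *Ankrd37* had 2.74 and 2.72 CPM per kilobase in KO and overlapped. Neighbours at all other places in the KO order did not overlap, with the same limit for *Pgk1* and *Bnip3*.

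To place the 10 genes in their pathway, 101 further genes were described in 5 lists, of which 89 passed the filter. These lists, like the marker lists, were written with earlier results of these data known. Their calls, shares and p-values are therefore a description, and nothing is read from the shares. At an edgeR adjusted p under 0.05, 14 of these 89 genes (15.7%) were higher in KO, beside 7.33% of all genes tested, and 0 were lower, beside 0.57%. At an unadjusted p under 0.05, 32 of the 89 genes passed in either direction, beside 22.7% of all genes tested, and with DESeq2 2 genes were lower. Leaving out WT replicate 1 gave 32 changed genes of 92 tested, 12 of them lower, where 21.3% of all genes were called and 7.15% were called lower. Leaving out WT replicate 2 gave 35 of 90, 13 of them lower, where 23.3% of all genes were called and 12.0% were called lower. Over the 89 genes, log2 fold changes had a median of -0.06, while those of the 14 called genes were 1.42 to 5.10.

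**Figure D3:**
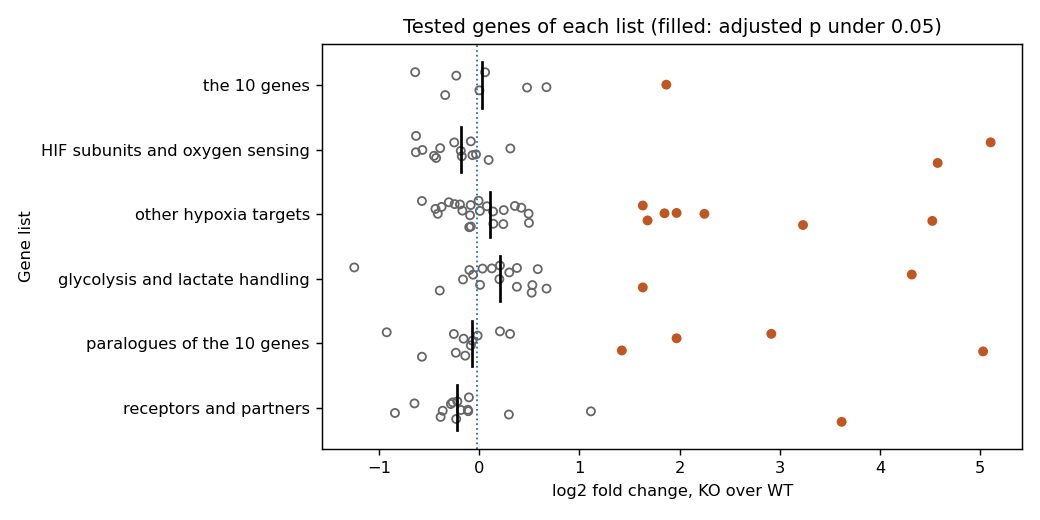
Log2 fold changes (KO over WT) of the tested genes among the 10 and in each of the 5 further lists, filled where the edgeR adjusted p is under 0.05, with a black line at the median of a list and a dotted line at the median of all genes tested (-0.03). A gene in 2 lists is drawn in each, and the filled points lie between 1.42 and 5.10 on the right while most open points gather around 0.

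The list of HIF subunits and oxygen sensing held 16 tested genes, of which 2 were higher and 0 lower in KO, with 7 at an unadjusted p under 0.05 and a median log2 fold change of -0.18. *Hif3a*, which encodes the HIF-3 alpha subunit, was counted 15 and 18 times in WT against 513 and 584 times in KO. Its log2 fold change was 5.10 (SE 0.22, edgeR adjusted p = 6.33e-06). *Epas1*, the gene of HIF-2 alpha, which in brain is known from endothelial and mural cells and astrocytes, rose from counts of 33 and 17 to counts of 546 and 623 (log2 fold change 4.58, SE 0.33, edgeR adjusted p = 7.54e-05). The log2 fold change of *Epas1* was 5.31 without WT replicate 1 and 4.01 without WT replicate 2.

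*Hif1a*, the gene of HIF-1 alpha, averaged 145 ± 34.9 CPM in WT against 111 ± 7.20 CPM in KO (SD, n = 2 each). With a log2 fold change of -0.39 (SE 0.19, edgeR adjusted p = 0.258) it did not pass the threshold, and without WT replicate 2 it did, as a lower gene. The log2 fold change of *Hif1a* was -0.63 without WT replicate 2 and -0.13 without WT replicate 1. HIF-1 alpha is controlled mainly through its protein, which these libraries do not measure. The partner subunit genes *Arnt* (log2 fold change 0.31, edgeR adjusted p = 0.366) and *Arnt2* (-0.03, edgeR adjusted p = 0.925) did not pass. *Arnt* was called higher without WT replicate 1, at 0.54 on the log2 scale, but stood at 0.09 without WT replicate 2. The genes of the hydroxylases and of VHL did not pass, with *Egln1* at -0.08, *Egln2* at -0.07, *Vhl* at -0.18 and *Hif1an* at 0.09 on the log2 scale, and edgeR adjusted p-values of 0.484 and above. The genes of the proteins that act with VHL in the ubiquitin ligase did not pass either, but *Rbx1* (-0.45, edgeR adjusted p = 0.104), *Elob* (-0.57, edgeR adjusted p = 0.113) and *Eloc* (-0.63, edgeR adjusted p = 0.159) had both KO libraries below both WT libraries. These 3 genes were called lower with the replicate block, and each also under other settings. *Cul2* stood at -0.25 (edgeR adjusted p = 0.616) and was called lower without WT replicate 2. *Cited2*, which encodes a competitor of HIF for its coactivators, stood at -0.63 on the log2 scale (edgeR adjusted p = 0.0904) and *Siah1a*, a ubiquitin ligase gene, at -0.43 (edgeR adjusted p = 0.183), both with KO below WT. *Cited2* was also called lower with the replicate block, with GC and length offsets, with both together, and without WT replicate 1 or WT replicate 2. *Siah1a* was called lower without WT replicate 2.

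Of 30 tested genes among other hypoxia targets, 7 were higher and 0 lower in KO (10 at an unadjusted p under 0.05), with a median log2 fold change of 0.11. The largest difference was in *Ppp1r3c*, whose product targets a phosphatase to glycogen, counted 15 and 23 times in WT against 424 and 413 times in KO (log2 fold change 4.52, SE 0.24, edgeR adjusted p = 1.53e-05). *Bhlhe40*, a transcriptional repressor also tied to the circadian clock, rose from counts of 20 and 44 to counts of 259 and 311, or by 3.23 on the log2 scale (edgeR adjusted p = 0.000311). The nuclear receptor gene *Rora* (2.25), the collagen hydroxylase gene *P4ha2* (1.97) and the mitochondrial adenylate kinase gene *Ak4* (1.85) were also higher at edgeR adjusted p-values of 0.00983 and below. The 23 genes that did not pass ranged from -0.57 to 0.50 on the log2 scale.

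In the list of glycolysis and lactate handling, 2 of 19 tested genes were higher and 0 lower (8 at an unadjusted p under 0.05), and the median log2 fold change was 0.21. *Aldoc*, the aldolase known as an astrocyte marker, rose from 17.0 ± 4.69 to 340 ± 14.1 CPM (SD, n = 2 each), or by 4.32 on the log2 scale (edgeR adjusted p = 1.18e-05). *Slc2a1*, which encodes the glucose transporter GLUT1 of vessels and glia, rose from 14.6 ± 3.45 to 45.5 ± 1.501 CPM (SD, n = 2 each), or by 1.63 on the log2 scale (edgeR adjusted p = 0.00202). The other 17 genes, between -1.25 and 0.67, had edgeR adjusted p-values of 0.0546 and above. The lowest of them was *Slc16a7*, a monocarboxylate transporter gene, with counts of 222 and 162 for WT against 96 and 62 for KO (log2 fold change -1.25, SE 0.35, edgeR adjusted p = 0.0762). It was called lower with DESeq2, with library size only, without a filter, with the replicate block, with GC and length offsets, and without WT replicate 1, WT replicate 2 or KO replicate 1, so that the count of 0 lower genes depends on the setting.

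To see how the 10 genes compare with their closest relatives, 19 paralogues were described, of which 15 were tested and 4 were higher in KO. The kinase genes *Pdk2* and *Pdk4* were higher while *Pdk3* was not called. *Pdk2* was counted 65 and 101 times in WT against 189 and 235 times in KO (log2 fold change 1.42, SE 0.23, edgeR adjusted p = 0.00738). *Pdk4* rose from counts of 5 and 0 to counts of 69 and 99 (log2 fold change 5.03, edgeR adjusted p = 0.00493). Its log2 fold change was 3.90 without WT replicate 2, whereas without WT replicate 1 the remaining WT library was at 0 and no fold is given. *Pdk3* had a log2 fold change of -0.02 (SE 0.36).

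*Ndrg2*, known in brain from astrocytes, rose from 40.6 ± 2.20 to 306 ± 6.38 CPM (SD, n = 2 each). The log2 fold change of *Ndrg2* was 2.91 (SE 0.15, edgeR adjusted p = 1.23e-05), beside -0.14 in *Ndrg3* and -0.25 in *Ndrg4*, which did not pass. *Ndrg4* was called lower with GC and length offsets (-0.31), with these and the replicate block (-0.31), and without WT replicate 1 (-0.40). Without WT replicate 2 the log2 fold change of *Ndrg4* was -0.11. *P4ha2* rose from counts of 42 and 48 to counts of 172 and 167, while *P4ha3* with 9 to 22 counts per library was not called (-0.23, SE 0.603).

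The VEGF family genes other than *Vegfa* did not pass. *Vegfb* had a log2 fold change of 0.31 (SE 0.21), *Pgf* of -0.16 (SE 0.32) and *Vegfc* of -0.92 (SE 0.65). The value of *Vegfc* was -0.35 without KO replicate 1 and -1.90 without KO replicate 2. *Vegfd*, with counts of 0 and 0 in WT against 4 and 17 in KO, was too low to be tested. *Bnip3l*, at -0.57 on the log2 scale (edgeR adjusted p = 0.178), and *Ldhb*, at 0.21 (edgeR adjusted p = 0.477), did not pass either. Without WT replicate 2, *Bnip3l* was called lower, at -0.87, whereas it stood at -0.23 without WT replicate 1. *Pgk2* and *Adm2* had no count in any library, and *Ldhc* had 0 to 6.

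**Figure D4:**
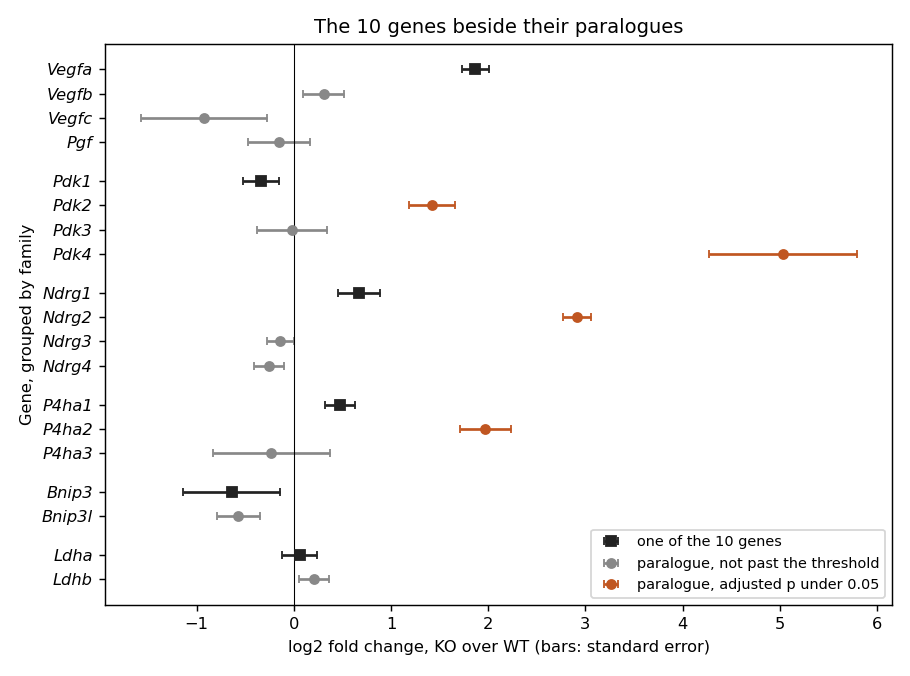
Log2 fold changes (KO over WT, with standard error bars) of 6 of the 10 genes as black squares and of their tested paralogues as circles, orange where the edgeR adjusted p is under 0.05. *Pdk2*, *Pdk4*, *Ndrg2* and *P4ha2* lie at 1.42, 5.03, 2.91 and 1.97, to the right of *Pdk1* (-0.34), *Ndrg1* (0.67) and *P4ha1* (0.48), and the difference between a gene and its paralogue was not tested.

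Among 15 tested receptors and partners of the 10 gene products, 1 gene was higher and 0 were lower (5 at an unadjusted p under 0.05). This was *Ramp1*, a receptor activity-modifying protein that forms mainly the CGRP receptor with the calcitonin receptor-like receptor, counted 3 and 13 times in WT against 106 and 80 times in KO (log2 fold change 3.62, SE 0.52, edgeR adjusted p = 0.00360). Its log2 fold change was 3.05 without WT replicate 1 and 4.78 without WT replicate 2. The receptors of adrenomedullin pair the same receptor with RAMP2 or RAMP3. *Ramp2* (0.30, edgeR adjusted p = 0.689) and the receptor gene *Calcrl* (-0.37, edgeR adjusted p = 0.488) did not pass, although *Calcrl* was called lower without WT replicate 2, and *Ramp3*, with 2 to 7 counts per library, was too low to be tested. *Pdp1*, whose product is the phosphatase that opposes the PDK kinases, had counts of 673 and 691 for WT against 420 and 423 for KO (log2 fold change -0.65, edgeR adjusted p = 0.0509). It was called lower with DESeq2, with DESeq2's size factors, without a filter, and with the replicate block, with or without GC and length offsets. The same call was made without WT replicate 1 and without WT replicate 2. The genes of the signalling receptors of VEGF-A did not pass, with *Flt1* at 3.09 ± 0.337 CPM in WT and 6.73 ± 0.606 CPM in KO (SD, n = 2 each, edgeR adjusted p = 0.107), and *Kdr* at 6.33 ± 0.881 and 3.53 ± 0.456 CPM (SD, n = 2 each, edgeR adjusted p = 0.207). Neither did the co-receptor genes, with *Nrp1* at 273 ± 16.6 and 227 ± 1.48 CPM (SD, n = 2 each, edgeR adjusted p = 0.285) and *Nrp2* at 341 ± 22.4 and 261 ± 10.8 CPM (SD, n = 2 each, edgeR adjusted p = 0.142). Both were called lower without WT replicate 1, and *Nrp2* also with GC and length offsets, with or without the replicate block.

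The genes called higher in these 5 lists were measured in the same KO libraries in which the astrocyte, mural cell and oligodendrocyte markers summed to 3363 to 3587, 417 to 422 and 661 to 662 CPM. The part of these cell types in their differences was not tested.

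The genes most like *Vegfa* were sought by the root mean square distance between profiles of log2(CPM + 0.5), each centred on its mean over the 4 libraries, among 16294 genes with a mean of at least 10 counts. The nearest were *Aff1* (distance 0.0179), *Mcc* (0.031), *Vstm4* (0.0385), *D630003M21Rik* (0.039) and *Sash1* (0.0454). *Aff1* stood at 11.0 and 12.0 CPM in WT and at 44.0 and 42.7 CPM in KO. With 4 libraries in 2 genotypes, this likeness rests mostly on the size of the KO over WT difference, which the added 0.5 CPM shrinks in low genes such as *Vstm4* (1.37 and 1.47 CPM in WT), whose fitted log2 fold change was 2.25.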

How the data were processed

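RNA-seq of 4 libraries (2 WT, 2 KO) was used. The deposited values are raw read counts of Ensembl genes, not normalized by the authors. The submitters' processing notes name CASAVA 1.8.2, STAR 2.5.2a, featureCounts 1.5.0-p1 and the builds mm10 and GRCm38; the strand setting is not given in the sources used here. Of the 55573 identifiers, 55480 matched GENCODE M21 (GRCm38). Totals were 8075102 to 9995968 counts per library.

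In R 4.3.3, low genes were removed with filterByExpr, libraries were scaled by TMM, and the quasi-likelihood test of edgeR 4.0.16 (with limma 3.58.1) was run with genotype as the only term. Benjamini-Hochberg adjustment covered all genes tested, with a threshold of 0.05. Standard errors were derived from the test statistic. CPM per kilobase used merged exons.

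The 10 genes and all lists were chosen with earlier results of these data known. Named genes are the 10, *Dnmt1*, all paralogues, HIF subunits, EGLN genes, *Vhl* and *Hif1an*, up to 5 called genes per other list by size of change, and the 5 genes nearest to *Vegfa*; *Flt1*, *Kdr*, *Nrp1*, *Nrp2*, *Calcrl*, *Ramp2*, *Ramp3*, *Cul2*, *Siah1a* and genes named with overlaps or as lower under other settings were chosen after their values were seen. Alternatives were DESeq2 1.42.0, limma-voom, other scalings and filters, a replicate block, offsets for GC content and length (loess per library), and each library left out in turn.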

Additional observations from a re-analysis of the deposited data

How the results depend on the processing

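The log2 fold change of *Vegfa* was 1.84 to 1.97 over the 10 alternatives that use all libraries and 1.81 to 1.91 when a library was left out. The number of the 10 genes past the threshold was 1 in 8 of these 10 alternatives and 3 with GC and length offsets, with or without the replicate block (21.8% and 17.2% of all genes called), and 1 to 2 when a library was left out (5.37% to 23.3%). The sign of *Ldha* changed only without WT replicate 1 (-0.15), and *Pgk1* ranged from -0.19 to 0.19 over all alternatives. With the longest transcript in place of merged exons, *Ldha* (37.5 CPM per kilobase) stood above *Vegfa* (27.4) in WT.

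The 2 pairs of libraries with a shared replicate number deviated together with a correlation of 0.159 across genes, but they share only a number. With the replicate block, 2244 genes changed, 619 of them lower, and 22 of the other hypoxia pathway genes, 6 of them lower (*Eloc*, *Elob*, *Pdp1*, *Cited2*, *Slc16a7* and *Rbx1*). With GC and length offsets, 2899 genes changed (1852 higher, 1047 lower), and 25 pathway genes, 6 of them lower. With the block and the offsets together, 3671 genes changed (2161 higher, 1510 lower), and 28 pathway genes, 8 of them lower. These compare with 1329 (1233 higher, 96 lower) and 14 pathway genes, none lower. Without a filter 2363 genes changed, 573 lower, with 4 pathway genes lower. With at least 10 counts in every library 883 changed, 52 lower. DESeq2 gave 247 lower genes and 2 lower pathway genes, and DESeq2's size factors and library size only gave 1 lower pathway gene each.

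When a library was left out, which leaves a genotype with 1 library that is assumed to vary like the other, 951 to 4209 genes changed, 900 to 2578 higher and 51 to 2180 lower, and 14 to 35 pathway genes, 14 to 22 higher and 0 to 13 lower. The high counts, 3878 and 4209, came without WT replicate 1 and WT replicate 2. The libraries of a genotype did not vary alike: the chi-square per degree of freedom between them was 57.2 in WT and 4.28 in KO, so that these fits take their spread from the closer KO pair. This chi-square includes mitochondrial rRNA, at 8.66% of counts in WT replicate 1 and 1.51% in WT replicate 2. The rRNA adds to the WT value, which therefore does not describe how most genes vary.

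Signs changed, with no call in any of these fits, for *Arnt2* (0.0808 with library size only, 0.00804 with the upper quartile, 0.00314 with at least 10 counts), *Egln1* (0.0313) and *Egln2* (0.0409) with library size only, and *Pdk3* (0.10, 0.0267 and 0.0200 with the settings of *Arnt2*). With a library left out the ranges were -0.17 to 0.11 for *Arnt2*, -0.19 to 0.0150 for *Egln1*, -0.87 to 0.23 for *P4ha3*, -0.40 to 0.299 for *Pdk3* and -0.43 to 0.17 for *Pgf*. Low counts limit *Adm*, *Egln3*, *Bnip3*, *Pgk1* and *Ankrd37*, at 1 to 46 per library. For *Bnip3*, *Pgk1* and *Ankrd37*, depth and reads lost to shared sequence cannot be told apart as the reason. Scaling by library size only moved the median log2 fold change of all genes from -0.03 to 0.08.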
